A study of Mus musculus with 5 samples.

Results

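The clustered protocadherin genes of the mouse were taken as every gene whose symbol marks it as a member of the alpha, beta or gamma cluster. These were 58 of the 27919 named genes in the count table, with 14 in the alpha cluster, 22 in the beta cluster and 22 in the gamma cluster. Polyadenylated RNA was sequenced from untreated C57BL/6 forebrain of E12.5 embryos, in 3 samples labelled EedcKO and 2 labelled wild type, which the submitters call littermates. EedcKO is the submitters' name for a deletion of Eed, a core subunit of Polycomb repressive complex 2, which methylates histone H3 at lysine 27. The sources used here name neither the Cre driver nor the deleted exons, nor any allele that the wild-type samples carry. The question was how the transcripts of these genes compare between the genotypes, cluster by cluster.

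Clustered protocadherins are cell surface adhesion proteins of the cadherin superfamily that neurons use to tell their own processes from those of other neurons. In the alpha and gamma clusters each gene contributes its own large first exon, which is spliced to a few constant exons at the end of the cluster. Beta genes have no constant exons, and most of their coding sequence lies in a single exon. Neurons choose most of these genes at random, through promoters that bind CTCF and are looped by cohesin to distant enhancers. The C-type genes at the ends of the alpha and gamma clusters are used more uniformly.

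The named genes summed to 4723794 to 4922228 counts per library, and 1 count corresponded to 0.203 to 0.210 CPM, the unit for counts scaled to a common library size. The forebrain markers Emx1, Emx2, Six3, Lhx2, Dlx1 and Dlx2 were detected in all 5 libraries. Counts of Eed, the targeted gene, were 404 for wild type 1, 238 for the library labelled wild type 2, and 251, 233 and 247 for EedcKO 1, 2 and 3 (log2 fold change -0.40, SE 0.22, adjusted p = 0.412 with edgeR). The library labelled wild type 2 thus stood at the EedcKO level of the targeted gene, although whole-gene counts may also cover exons that the deletion leaves intact. Counts summed over 39 HOX genes were 2 for wild type 1, 134 for the library labelled wild type 2, and 85, 184 and 62 for EedcKO 1, 2 and 3. The chi-square per gene was 8.21 between the wild-type libraries. It was 2.61 to 4.75 between EedcKO libraries and 8.03 to 10.8 across the groups. The library labelled wild type 2 also held 208.5 CPM of surface epithelium keratins and related markers against 9.61 to 20.0 CPM in the others. Wild type 1, the library labelled wild type 2 and EedcKO 1 had 3127 to 5239 Xist counts. EedcKO 2 and 3 had at most 4 and carried 1670 and 1406 counts of Y-linked genes. By these genes both wild-type libraries and EedcKO 1 were female, and EedcKO 2 and 3 were male. Sex is thus partly mixed with genotype in the comparisons below. Separate embryos are not stated for the samples. The p-values therefore describe the variation among these samples only, and some of it may be technical.

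The clusters lie side by side on chromosome 18 (mm10), the alpha cluster from 36930285 to 37188897, the beta cluster from 37264998 to 37521419 and the gamma cluster from 37661775 to 37841873. In the alpha and gamma clusters a gene shared much of its exon length with the other members of its cluster. The median share of a gene's exon length that no other member covers was 46.5% in the alpha cluster, 55.3% in the gamma cluster and 100% in the beta cluster. Reads from the constant exons cannot be assigned to 1 member. They were not counted for every member, since Pcdha4 had counts of 2, 0, 0, 1 and 0 in a cluster where Pcdhac2 had 70 to 113. The sources used here do not say whether such reads were discarded or given to some members. The deposited TPM (length-scaled transcript abundance) divide by the whole exon length, constant exons included, for all 55 members checked, so they may understate alpha and gamma genes beside beta genes. Beta genes resemble each other closely, and Pcdhb21 and Pcdhb22 overlap at their ends, so values of single genes carry an uncertainty of read assignment as well.

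None of the 48 members with enough counts to be tested passed edgeR's quasi-likelihood test at an adjusted p of 0.05. Of the 13989 genes tested, 3.2% did so (2.17% lower in EedcKO and 1.04% higher). In simulated counts with means of 10 to 59.8, this test called 0% of 1.5-fold and 6% of 2-fold changes. Outside that range it called 40% and 90%. The tested beta genes, most tested alpha genes and most gamma genes lie in that range, so the lack of calls there says little about such changes. At an unadjusted p under 0.05, 4 of 17 beta genes, 3 of 22 gamma genes and none of 9 alpha genes were lower in EedcKO and none was higher, against 9.51% of all tested genes lower and 7.7% higher. DESeq2 also called no member, with 3 beta genes, 1 gamma gene and no alpha gene lower at an unadjusted p under 0.05. With limma-voom 1 member was called, Pcdhb17, and 1 alpha, 5 beta and 3 gamma genes had an unadjusted p under 0.05. All clusters together summed to 631 ± 110 CPM in wild type (SD, n = 2) and 509 ± 20.0 CPM in EedcKO (SD, n = 3). Fewer cells that use a gene and less RNA per cell cannot be told apart in these bulk samples.

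**Figure D1:**
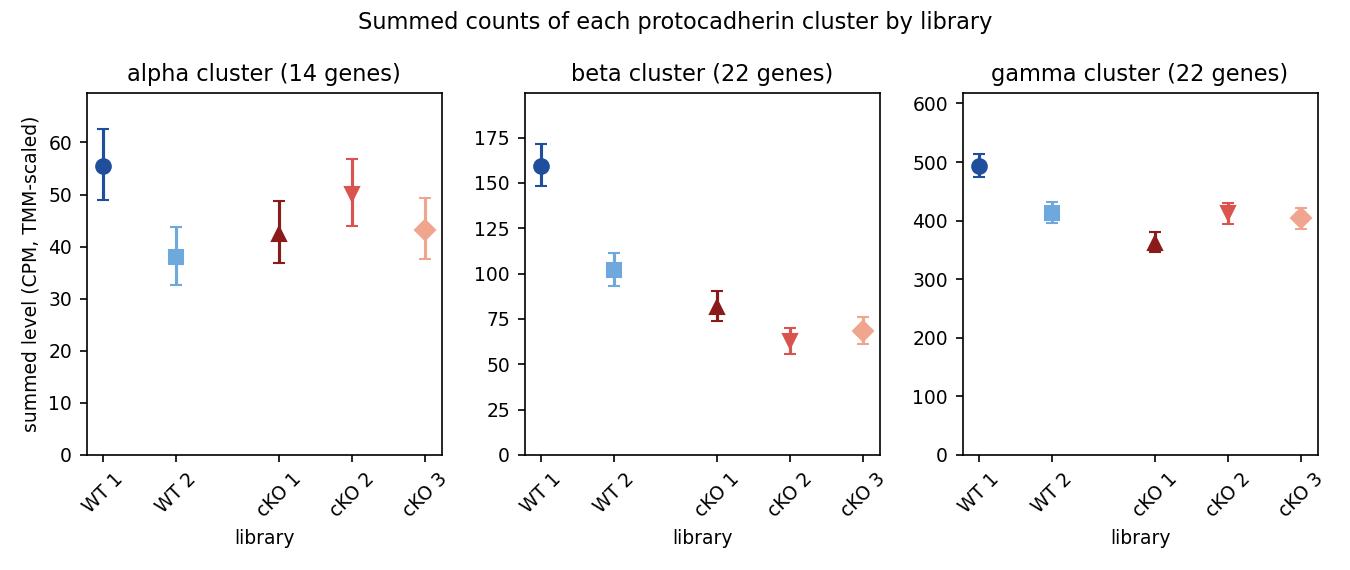
Summed level of the alpha, beta and gamma clusters (vertical axes, CPM, each starting at 0) in the 5 libraries (WT, wild type; cKO, EedcKO). Points are single libraries and bars are 95% Poisson intervals, which cover counting error only; the beta sums run from 159 in wild type 1 to 62.7 in EedcKO 2.

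The beta cluster stood lower in every EedcKO library than in either wild-type library. Counts summed to 758 for wild type 1, 503 for the library labelled wild type 2, and 392, 304 and 333 for EedcKO 1, 2 and 3. As CPM these were 159, 102, 81.7, 62.7 and 68.1. The mean was 131 ± 40.6 CPM in wild type (SD, n = 2) and 70.8 ± 9.75 CPM in EedcKO (SD, n = 3). Pooled counts gave an EedcKO level of 0.544 of the wild type, with a 95% counting interval of 0.500 to 0.591 that leaves out the spread between libraries. The groups did not overlap, but the wild-type libraries differed from each other by more than the library labelled wild type 2 differed from EedcKO 1. The log2 ratio of the sums was -0.88, and it was -0.54 without wild type 1, -1.16 without the library labelled wild type 2 and -0.68 with EedcKO 1 alone against both wild types.

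All 21 beta genes with a count had a log2 fold change below 0, from -0.44 in Pcdhb8 to -1.78 in Pcdhb13, when every gene with a count was fitted. The median was -0.97, beside -0.01 over all 19266 genes with a count, of which 51.2% were below 0. Pcdhb1 had no count in any library, which allows up to 3 counts or 0.631 CPM in wild type 1. Of the 22 beta genes, 10 had both wild-type libraries above all EedcKO libraries and none had them below; these orders held for 15.6% and 13.4% of all genes with a count, respectively. Without wild type 1, 15 of 17 tested beta genes were below 0 with a median of -0.40. Without the library labelled wild type 2 all 21 tested were, with a median of -1.09. That larger set added Pcdhb2, Pcdhb12, Pcdhb13 and Pcdhb15, which reached the minimum count for testing in wild type 1 alone. The filter thus favoured a sign below 0 for them, and these medians cover unlike sets of genes. Wild type 1 was above the library labelled wild type 2 in 20 of the 21, against 49.8% of all genes with a count. These genes are counted in the same libraries and are not independent of each other.

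Pcdhb17 (chromosome 18, 37485021 to 37488290) came closest to the threshold. Its counts were 88 for wild type 1, 82 for the library labelled wild type 2, and 48, 43 and 38 for EedcKO 1, 2 and 3. It was the beta gene with the highest mean CPM, its wild-type libraries lay close together, and the groups did not overlap. Its log2 fold change was -0.98 (SE 0.21, adjusted p = 0.0520 with edgeR). Over the other scalings, filters and tests, the replicate block and each library left out, its adjusted p lay between 0.0384 and 0.205, and the change between -0.89 and -1.08 when any 1 library was left out.

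**Figure D2:**
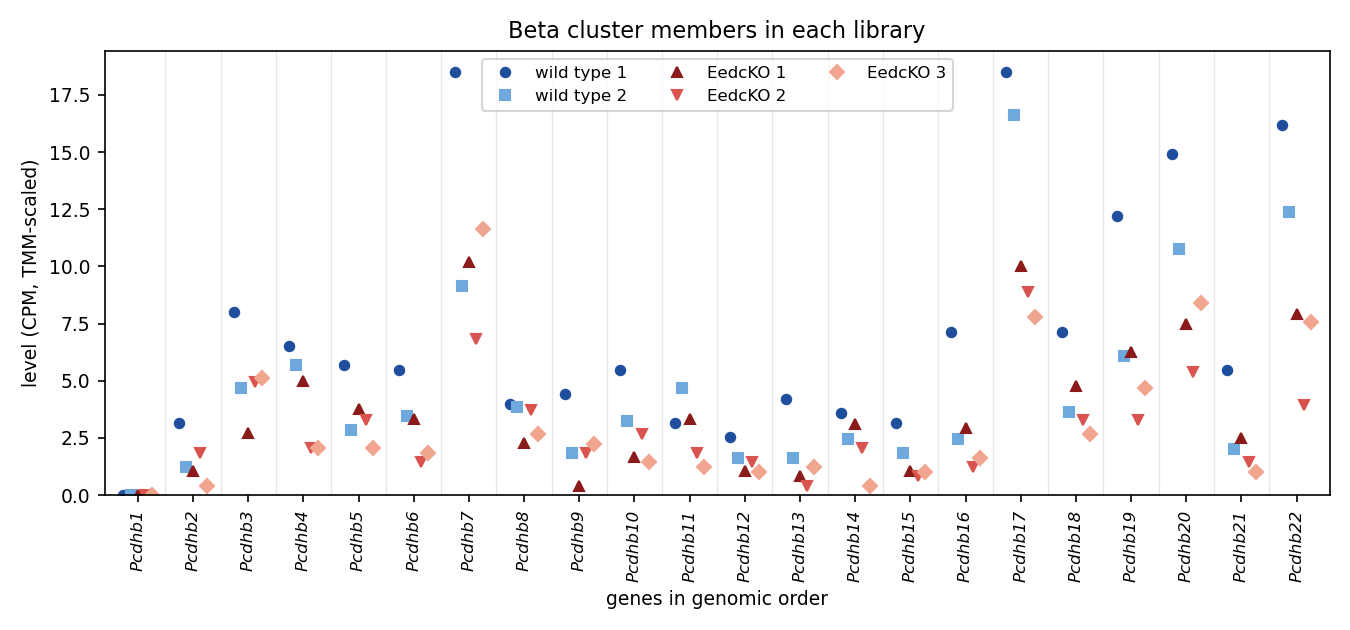
Level of each beta cluster gene (vertical axis, CPM) in each library, with the genes in genomic order and a marker per library. Wild type 1 is highest at most genes, and Pcdhb17, Pcdhb20 and Pcdhb22 have both wild-type libraries clear of the EedcKO libraries.

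Pcdhb22, the last gene of the beta cluster, had 77 and 61 counts in wild type and 38, 19 and 37 in EedcKO (log2 fold change -1.14, SE 0.33, edgeR adjusted p = 0.121). Pcdhb20 had 71 and 53 counts against 36, 26 and 41 (log2 fold change -0.85, SE 0.28, edgeR adjusted p = 0.172). In both genes the groups did not overlap, and EedcKO 2 was the lowest library. The other genes among the 5 highest of the cluster overlapped between the groups. Pcdhb19 had 58 and 30 counts against 30, 16 and 23 (log2 fold change -0.94, SE 0.40), so the library labelled wild type 2 equalled EedcKO 1. Pcdhb7 had 88 and 45 counts against 49, 33 and 57 (log2 fold change -0.53, SE 0.36), and its higher wild-type mean rested on wild type 1. Per length these 5 genes did not keep that order. Their mean TPM over the 5 libraries was 15.5 for Pcdhb7, 12.8 for Pcdhb17, 12.7 for Pcdhb20, 7.01 for Pcdhb22 and 4.41 for Pcdhb19.

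The other beta genes had low counts. The 5 that were not tested, Pcdhb1, Pcdhb2, Pcdhb12, Pcdhb13 and Pcdhb15, had at most 20 counts in a library. Of the 17 tested, 6 reached the minimum of 10 counts per typical library in fewer than 2 EedcKO libraries. Passing through the wild-type libraries favours a change below 0. Those genes included Pcdhb10, which was among the beta genes lower at an unadjusted edgeR p under 0.05. Pcdhb13 had 20 and 8 counts in wild type and 4, 2 and 6 in EedcKO, and Pcdhb15 had 15 and 9 against 5, 4 and 5. In both, which were named after their values were seen, the groups did not overlap. The 5 highest genes made up 50.4% and 53.9% of the beta counts in wild type and 51.3%, 45.1% and 58.9% in EedcKO, and these shares overlapped between the groups.

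The alpha cluster overlapped between the groups in its sum. It had 264 counts in wild type 1, 187 in the one labelled wild type 2, and 204, 243 and 211 in EedcKO 1, 2 and 3. The means were 46.7 ± 12.4 CPM in wild type (SD, n = 2) and 45.3 ± 4.24 CPM in EedcKO (SD, n = 3), and the wild-type libraries lay at the top and the bottom of the range. In the fit without a count filter, 9 of the 14 genes had a log2 fold change below 0 and 5 above, with a median of -0.42; over the 9 tested genes the median was -0.44. The groups did not overlap for Pcdha2, Pcdha3 and Pcdha11, which were lower in EedcKO, and for Pcdhac2, which was higher. These 3 of 14 and 1 of 14 stand beside 15.6% and 13.4% of all genes with a count, near that background.

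Pcdhac2, the last gene before the constant exons of the cluster and a C-type gene, was the highest alpha gene. Its counts were 78 for wild type 1, 70 for the library labelled wild type 2, and 96, 113 and 89 in EedcKO 1, 2 and 3. All EedcKO libraries were above both wild types, with means of 20.5 ± 2.60 CPM (SD, n = 3) and 15.3 ± 1.56 CPM (SD, n = 2). The log2 fold change of 0.42 (SE 0.18) did not pass (edgeR adjusted p = 0.299). Its share of the alpha counts was 29.5% and 37.4% in wild type and 47.1%, 46.5% and 42.2% in EedcKO. Pcdhac2 is known as the isoform that serotonergic neurons rely on, and markers of those neurons were nearly absent (1 to 5 summed counts of Tph2, Slc6a4 and Fev per library, with Fev at 0 throughout). The other C-type gene, Pcdhac1, had counts of 21 for wild type 1, 2 for the library labelled wild type 2, and 6, 12 and 11 for EedcKO. Its wild-type libraries thus lay on both sides of the EedcKO libraries, and the sign of its change depended on the fit.

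**Figure D3:**
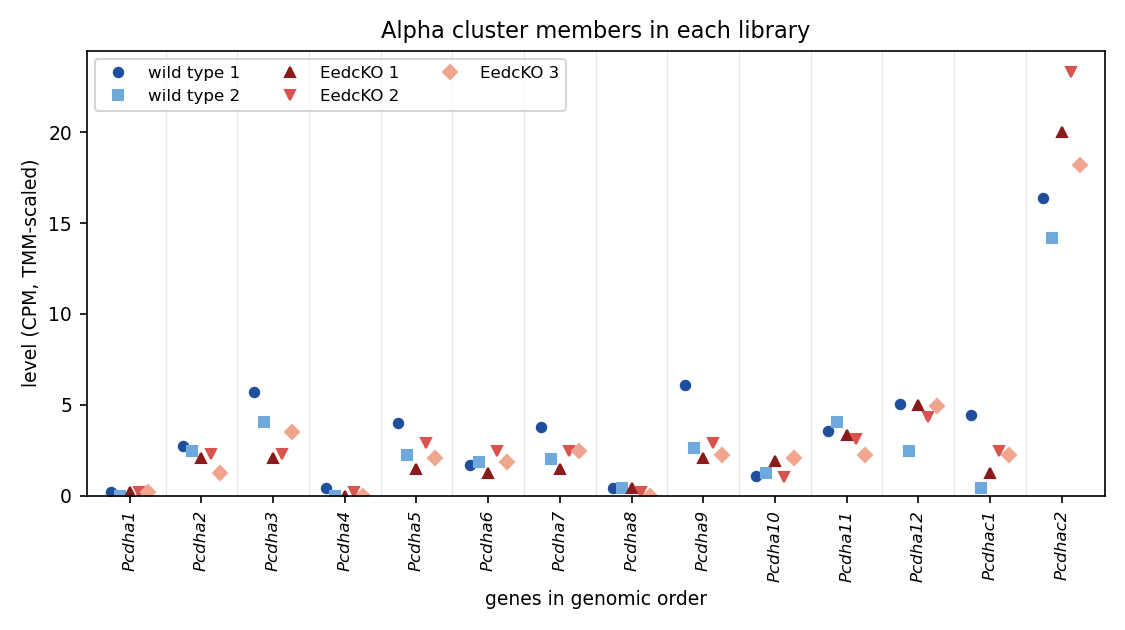
Level of each alpha cluster gene (vertical axis, CPM) in each library, with the genes in genomic order and a marker per library. Pcdhac2 stands above the rest, with its EedcKO libraries at 18.2 to 23.3 CPM and its wild-type libraries at 14.2 and 16.4 CPM.

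The 12 alternate alpha genes, which neurons choose at random, summed to 165 and 115 counts in wild type and 102, 118 and 111 in EedcKO, so wild type 1 stood apart and the library labelled wild type 2 lay within the EedcKO range. Pcdha3 had 27 and 20 counts in wild type and 10, 11 and 17 in EedcKO (log2 fold change -0.89, SE 0.39, edgeR adjusted p = 0.298). Pcdha9 had 29 and 13 counts against 10, 14 and 11 (log2 fold change -0.85, SE 0.46), and its difference rested on wild type 1. Pcdha11 had 17 and 20 counts against 16, 15 and 11 (log2 fold change -0.40, SE 0.36). Pcdha12 had 24 and 12 counts against 24, 21 and 24 (log2 fold change 0.35, SE 0.39), and its wild-type libraries spanned the EedcKO range. Pcdha1, Pcdha4 and Pcdha8 had at most 2 counts in any library, which is at or under the 3 counts that a count of 0 allows. Those 3 genes, Pcdha6 and Pcdha10 were not tested.

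The gamma cluster was the most abundant of the 3, and its sum was lower in EedcKO by less than the gap between the wild-type libraries. Its counts were 2347 for wild type 1, 2038 for the library labelled wild type 2, and 1740, 1997 and 1976 in EedcKO 1, 2 and 3. As CPM the sums were 494, 413, 362, 412 and 404, so the library labelled wild type 2 and EedcKO 2 were nearly equal. The means were 454 ± 56.7 CPM in wild type (SD, n = 2) and 393 ± 26.7 CPM in EedcKO (SD, n = 3). All 22 genes were tested and 19 had a log2 fold change below 0, against 48.4% of all tested genes. The median was -0.22, beside 0.01 over all tested genes. Wild type 1 was above the library labelled wild type 2 in 19 of the 22, and was the highest library in 15. The library labelled wild type 2 was above the EedcKO mean in 15. The groups did not overlap for 8 of the 22, all lower in EedcKO, against 17.4% of all tested genes.

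Pcdhgc3, a C-type gene and the most abundant of all 58, held 26.6% to 29.6% of the gamma counts in every library. It had 648 and 577 counts in wild type and 462, 567 and 584 in EedcKO (log2 fold change -0.19, SE 0.12, adjusted p = 0.500 with edgeR). EedcKO 1 was the lowest library and the groups overlapped. Pcdhgc4, the isoform known to be needed for neuron survival, had 105 and 96 counts in wild type and 60, 68 and 70 in EedcKO. The groups were well apart and each was tight, at 20.8 ± 1.85 CPM (SD, n = 2) and 13.6 ± 0.979 CPM (SD, n = 3). Its log2 fold change of -0.61 (SE 0.17) did not pass (edgeR adjusted p = 0.112), and lay between -0.53 and -0.69 when any 1 library was left out. Pcdhgc5, the last gene of the cluster, had 36 and 21 counts against 32, 47 and 29 (log2 fold change 0.33, SE 0.37), and the groups overlapped.

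**Figure D4:**
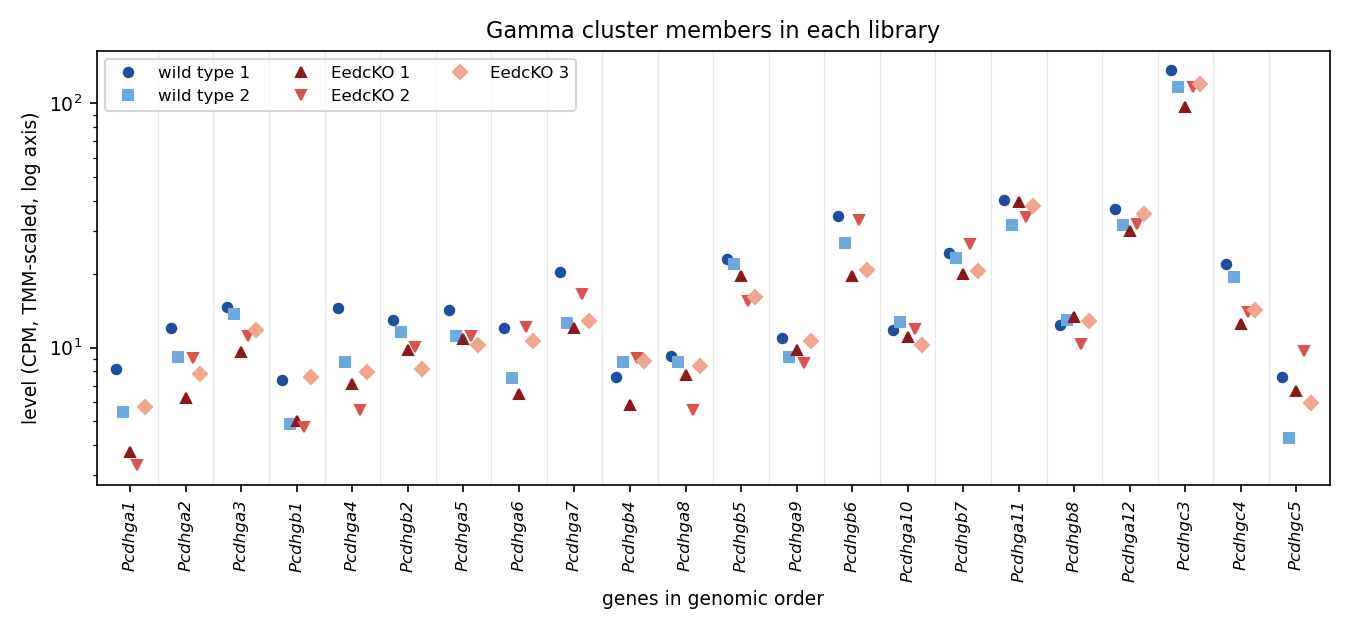
Level of each gamma cluster gene (vertical axis, CPM, log axis) in each library, with the genes in genomic order and a marker per library. Pcdhgc3 stands highest at 96.2 to 136 CPM, and Pcdhgc4 has both wild-type libraries (22.1 and 19.5 CPM) above the EedcKO libraries (at most 14.3 CPM).

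Of the A-type and B-type gamma genes, which neurons choose at random, the 4 most abundant all overlapped between the groups. Pcdhga11 had 191 and 156 counts in wild type and 189, 166 and 185 in EedcKO (log2 fold change 0.05, SE 0.14). Pcdhga12 had 176 and 156 counts against 144, 156 and 172 (log2 fold change -0.08, SE 0.14). Pcdhgb7 had 116 and 115 counts against 96, 129 and 101 (log2 fold change -0.09, SE 0.17), and Pcdhgb6 had 164 and 132 against 94, 162 and 102 (log2 fold change -0.31, SE 0.25). These 4 genes lie toward the end of the cluster. The A-type sums were 205, 162, 154, 162 and 169 CPM in the library order used above, and the B-type sums were 122, 110.3, 93.1, 109.8 and 95.1 CPM.

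Among less abundant gamma genes, Pcdhga4 had 69 and 43 counts against 34, 27 and 39 (log2 fold change -0.75, SE 0.31, edgeR adjusted p = 0.266), and Pcdhgb5 had 110 and 109 against 94, 75 and 79 (log2 fold change -0.41, SE 0.17, edgeR adjusted p = 0.279). With Pcdhgc4 these were the gamma genes at an unadjusted p under 0.05, and they were named after their values were seen. The groups did not overlap in either. Mean TPM in the gamma cluster ran from 4.33 in Pcdhgc5 to 103 in Pcdhgc3.

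**Figure D5:**
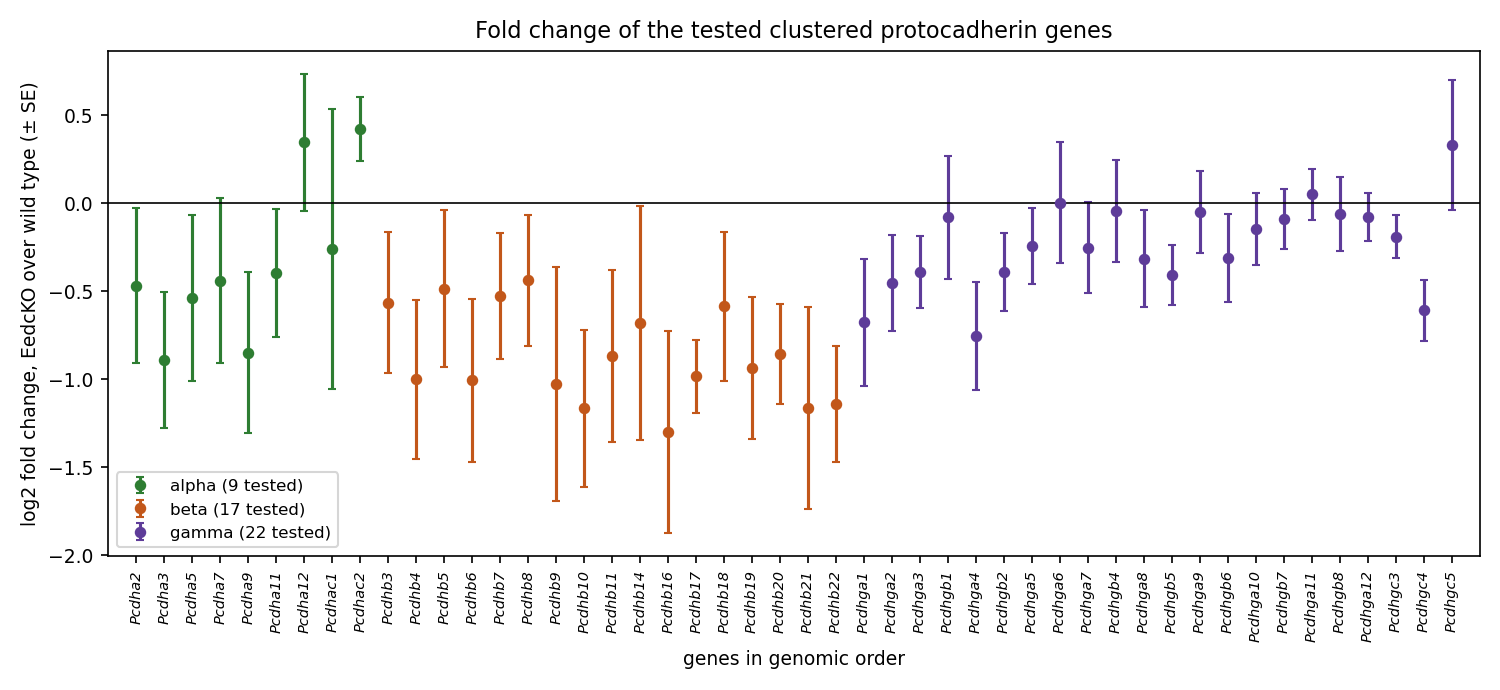
Log2 fold change of the 48 tested genes, EedcKO over wild type (vertical axis; points are edgeR estimates and bars 1 SE), in genomic order and coloured by cluster. All tested beta genes lie below 0, but 6 of the 17 reached the minimum count in fewer than 2 EedcKO libraries, which favours that sign. Pcdhac2 is the alpha gene farthest above 0 at 0.42.

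Within a library, beta counts were 32.3% of gamma counts for wild type 1, 24.7% for the library labelled wild type 2, and 22.5%, 15.2% and 16.9% for EedcKO 1, 2 and 3. This ratio does not depend on the scaling of the libraries, and its groups did not overlap. The distance between the library labelled wild type 2 and EedcKO 1 was smaller than that between the wild-type libraries. Alpha counts were 11.2% and 9.18% of gamma counts in wild type and 11.7%, 12.2% and 10.7% in EedcKO, with overlap.

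Of 11 genes of CTCF and cohesin none passed with edgeR, DESeq2 or limma-voom, and 1 was higher at an unadjusted edgeR p under 0.05. All had a log2 fold change above 0 (median 0.17), while 48.4% of all tested genes were below 0. The groups overlapped for Smc3, Stag1, Nipbl, Mau2, Pds5a and Pds5b, where the library labelled wild type 2 was the lowest. They did not overlap for the other genes of this list. Ctcf, which binds the promoters, was at 233 and 215 CPM in wild type and 243, 253 and 249 CPM in EedcKO (log2 fold change 0.15, SE 0.09). The cohesin subunit Stag2 had the smallest p (log2 fold change 0.37, SE 0.15, edgeR adjusted p = 0.268), followed by the cohesin release factor Wapl (0.26, SE 0.12). Of 15 genes of silencing and DNA methylation none passed with edgeR (TMM scaling, filtered counts) or limma-voom, and 1 was higher at an unadjusted edgeR p under 0.05. Hells, a chromatin remodeller needed for DNA methylation, was at 121 and 106 CPM in wild type and 184, 152 and 152 CPM in EedcKO (log2 fold change 0.52, SE 0.12, edgeR adjusted p = 0.0633), with no overlap, and DESeq2 called it (adjusted p = 0.0126). Hells was also called higher by edgeR with library size alone (adjusted p = 0.0286), with no filter on low counts (0.0307) and without wild type 1 (0.0346). Smchd1, a silencing factor known to act on these clusters, was at 212 and 152 CPM in wild type and 228, 199 and 206 CPM in EedcKO (log2 fold change 0.22, SE 0.15), with overlap, and edgeR called it higher only without wild type 1 (adjusted p = 0.0376).

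Of 24 partners and proteases of the proteins none passed with that edgeR fit or limma-voom, and 3 were lower at an unadjusted p under 0.05. Ret, a receptor kinase that associates with protocadherins, had 29 and 47 counts in wild type and 11, 15 and 7 in EedcKO (log2 fold change -1.77, SE 0.40, edgeR adjusted p = 0.0641), and DESeq2 called it (adjusted p = 0.0499). Ret was also called lower by edgeR with library size alone (adjusted p = 0.0432), with no filter on low counts (0.0421) and without wild type 1 (0.0272). The kinase Prkca was at 64.1 and 58.8 CPM in wild type and 46.9, 52.6 and 40.7 CPM in EedcKO, with no overlap (edgeR adjusted p = 0.163). The list of genes beside the clusters on chromosome 18 held no protocadherin. Of its 21 tested genes none passed with edgeR, DESeq2 or limma-voom. At an unadjusted edgeR p under 0.05, 3 were lower, and the median log2 fold change was 0.03. The smallest p values were those of Rell2 (log2 fold change -0.48, SE 0.16, edgeR adjusted p = 0.175) and Fchsd1 (-0.33, SE 0.12, edgeR adjusted p = 0.200), both beyond the end of the gamma cluster. Those genes overlap on opposite strands, so their reads may not be told apart. Taf7, which lies between the beta and gamma clusters, had 219 and 243 counts in wild type and 254, 210 and 216 in EedcKO (log2 fold change -0.03, SE 0.13).

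Of 11 nonclustered protocadherins, which are single genes outside the clusters, 1 was lower past the edgeR threshold, against 2.17% of all tested genes. At an unadjusted edgeR p under 0.05, 4 were lower and 2 higher, against 9.51% and 7.7% of all tested genes. Pcdh1 had 656 and 530 counts in wild type and 308, 305 and 352 in EedcKO (log2 fold change -0.89, SE 0.13, edgeR adjusted p = 0.0166), and its groups did not overlap. It lost the call without EedcKO 2 (edgeR adjusted p = 0.0779), without EedcKO 3 (0.107), with the replicate block (0.0615), in the female libraries alone (0.647) and with limma-trend on unfiltered TPM (0.0562). Because most beta genes are coded in a single exon, the other coding genes of that kind were set beside them, a choice made after the beta values were seen. Of 258 tested, 14 were lower and 4 higher past the threshold, against 2.17% and 1.04% of all tested genes. Among them 63.6% had a log2 fold change below 0 and the median was -0.12, beside 48.4% and 0.01 over all tested genes.

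The 15 pan-neuronal markers were detected in every library and were lower in sum in EedcKO. They summed to 4458 CPM for wild type 1, 3681 CPM for the one labelled wild type 2, and 3500, 3621 and 3373 CPM for EedcKO 1, 2 and 3. The wild-type libraries thus differed by more than the library labelled wild type 2 differed from any EedcKO library. Past the edgeR threshold, 3 of 15 were lower (Nefl, Syt1 and Mapt) and none higher, against 2.17% and 1.04% of all tested genes. Rbfox3 and Elavl4 had log2 fold changes above 0 (0.32 and 0.07). The 11 radial glia markers were likewise detected in every library. They summed to 2258 and 2036 CPM in wild type and 2436, 2395 and 2561 CPM in EedcKO, with 2 of 11 higher (Pax6 and Slc1a3) and none lower. Choroid plexus markers summed to 136.5 and 569 CPM in wild type and 115, 202 and 39.3 CPM in EedcKO, with Ttr, Folr1 and Kl at 0 in EedcKO 3. Meninges and mesenchyme markers summed to 405 and 655 CPM against 932, 466 and 689 CPM, endothelial markers to 254 and 192 against 225, 202 and 277 CPM, and erythroid markers to 57.2 and 173 against 98.95, 69.4 and 57.3 CPM. The part of any of these in the values of the protocadherin genes was not tested.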

How the data were processed

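RNA-seq of 5 forebrain samples was analysed, grouped by title into 3 EedcKO and 2 wild-type samples. Alignment was to mm10, with HISAT2 2.2.0, per the submitters' processing notes. Counting tool, strand setting and annotation: not given in the sources used here. Per the file headers, the authors deposited whole-number counts per gene and a table of TPM. Rows without a symbol (28277 of 56196, 2.01% to 2.16% of the counts) were left out. The tables held 0 columns of other samples. Counts were fitted over all genes in R 4.3.3 with edgeR 4.0.16 (filterByExpr, TMM, robust glmQLFit, glmQLFTest on genotype, Benjamini-Hochberg over 13989 genes, threshold 0.05), after a test on simulated data. SE is the log2 fold change over the square root of F. Values under a fit without a count filter are named as such. Positions are RefSeq's (GRCm38.p6, the assembly of mm10) and exon lengths GENCODE's M21 release, matched by symbol. A chi-square per gene of 2.61 to 10.8 between libraries marked no pair as a duplicate. Intervals (95%, Poisson or its ratio) leave out all but counting error. The genes and gene lists were chosen with earlier results of these data known. Named genes were the C-type genes, the 5 most abundant of each cluster, any member past the threshold, and from each list those past it or the 2 with the smallest p. Alternatives were RLE and library-size scaling, DESeq2 1.42.0, limma-voom and limma-trend on log2 of TPM (limma 3.58.1, pseudocounts 1 and 0.1), other filters, the replicate number as a block and each library left out.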

Additional observations from a re-analysis of the deposited data

How the results depend on the processing

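No alpha or gamma gene was called under any alternative. In the beta cluster 1 gene, Pcdhb17, was called with RLE size factors (adjusted p = 0.0499), with library size alone (0.0390), with limma-voom (0.0468) and with no filter on low counts (0.0384), and 0 to 1 genes were called when a library was left out (Pcdhb17 without the library labelled wild type 2, edgeR adjusted p = 0.0405). With the replicate block, 0 genes of any cluster were called and Pcdhb17 had a log2 fold change of -0.90 (edgeR adjusted p = 0.203). Same-numbered samples gave correlations of deviations of -0.04 and 0.13, over only 2 pairs. That block left 0 of all tested genes called, as did leaving out EedcKO 3 and the fit of the female libraries, added after seeing the data. Leaving out 1 library moved the log2 ratio of the sums between -0.29 and 0.24 (alpha), -1.16 and -0.54 (beta) and -0.32 and -0.09 (gamma). The change of Eed ran from -0.75 without the library labelled wild type 2 to 0.043 without wild type 1. Signs turned for Pcdhac1 with limma-voom (0.44) and limma-trend on TPM (0.082 with a pseudocount of 1, with or without the filter, and 0.41 with 0.1), and it ran from -1.13 to 2.21 with 1 library left out. They turned in such fits also for Pcdhb7 (-0.94 to 0.051), Pcdhga12 (-0.18 to 0.021), Pcdhgc5 (-0.020 to 0.78), Pcdha12 (-0.081 to 0.94) and Pcdhga11 (-0.11 to 0.22). Where 1 wild-type library remained, its spread was taken from the EedcKO libraries. Low counts limit the precision of most alpha and beta genes and of the less abundant gamma genes.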
